A study of Caenorhabditis elegans with 2 samples.

Results

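A total of 272 regions of EFL-1 chromatin immunoprecipitation lay at the 5′ ends of small nucleolar RNA (snoRNA), small nuclear RNA (snRNA) and microRNA (miRNA) genes of Caenorhabditis elegans. They were taken from the authors' list of 30000 peaks and background regions called on both replicates together, here the joint list, of which 29975 regions are on nuclear chromosomes. A region was included when its summit was within 200 bp of the annotated 5′ end of such a gene and not within 200 bp of a tRNA gene start. Of the 272 regions, 112 were also in the authors' thresholded list, which they call optimal and which holds 2802 nuclear regions. The optimal list contains 9.35% of the nuclear joint regions, against which the count of 112 (41.2%) is to be read.

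The samples form 1 group of 2 biological replicates, each with 1 technical replicate. Both are whole young adult hermaphrodites of the strain YL478, a transgenic line that stably makes EFL-1 fused at its C terminus to a GFP-FLAG tag, and the labels name neither a treatment nor the promoter of the transgene. The precipitation used an antibody to GFP on sonicated chromatin. The antibody field of the labels reads efl-1, and the description, which names GFP, is followed here. The tagged protein was read from whole animals, so a region found in a few cells and one found weakly in many cannot be told apart. There is no second condition, so shares and values are described beside those of other regions and no test between groups was possible. The control alignment that both replicates share was not analysed here. Read depth is unknown, and the signal value of a region is the authors' own, on a scale not given in the sources used here. Intervals are exact binomial 95% intervals and cover counting error only.

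EFL-1 is an E2F-family transcription factor that binds DNA with its partner DPL-1 and can act in the repressive DREAM complex, best known at promoters of protein-coding genes of the cell cycle and the germ line. snoRNAs guide the chemical modification of ribosomal and other RNAs, snRNAs form the spliceosome and, in nematodes, supply the spliced leaders that are joined to the front of messenger RNAs, and miRNAs repress messenger RNAs through a short seed sequence. Genes of snRNAs and of spliced leader RNAs carry a proximal sequence element upstream of their start, which is read by the SNAP complex, and tRNA genes are transcribed by RNA polymerase III from internal A and B boxes. A miRNA gene is annotated mostly by its hairpin, so the start of the primary transcript may lie farther upstream than the 5′ end used here.

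The sequences below show what the strongest of these regions carry. The first set comprises the 2 strongest optimal regions at snRNA genes and the 2 strongest at snoRNA genes whose gene has on its own strand the letters CGNAA followed after any 10 bases by GTC within 120 bp upstream. This is called PSE-like below, for its position and its occurrence at snRNA genes. The sequences run 5′ to 3′ on the strand of the gene in build ce11, from 110 bases before the 5′ end to 20 bases into the gene, with the element in capitals.
sls-2.8 (chrIII:12250355-12250484, plus strand): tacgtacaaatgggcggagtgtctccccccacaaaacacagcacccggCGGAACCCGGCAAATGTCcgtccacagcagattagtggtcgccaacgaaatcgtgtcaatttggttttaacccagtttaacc
sup-6 (chrII:12944948-12945077, minus strand): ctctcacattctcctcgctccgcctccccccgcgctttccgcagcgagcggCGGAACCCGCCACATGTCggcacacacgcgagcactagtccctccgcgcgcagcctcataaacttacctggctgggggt
ZK994.7 (chrV:8500469-8500598, plus strand): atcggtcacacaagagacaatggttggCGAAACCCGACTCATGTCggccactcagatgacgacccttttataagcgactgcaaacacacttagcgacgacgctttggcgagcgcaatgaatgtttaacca
Y53F4B.47 (chrII:15025874-15026003, minus strand): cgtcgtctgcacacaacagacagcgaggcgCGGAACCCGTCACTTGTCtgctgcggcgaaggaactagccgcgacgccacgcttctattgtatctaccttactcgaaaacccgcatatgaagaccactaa
The opening CG and the closing GTC are set by the search. All 4 elements also had a T just before the GTC, and they began 59 to 83 bases before the 5′ end.

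The second set shows the strongest snoRNA regions with GTTCNANNCC upstream of the gene, which is called B box-like for its likeness to the internal B box of tRNA genes. The strand, the extent and the use of capitals are as above.
T03F7.8 (chrV:11314148-11314277, plus strand): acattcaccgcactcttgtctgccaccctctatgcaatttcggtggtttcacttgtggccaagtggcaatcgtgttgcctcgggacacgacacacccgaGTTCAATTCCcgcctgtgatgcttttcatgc
Y75B12B.12 (chrV:15191074-15191203, minus strand): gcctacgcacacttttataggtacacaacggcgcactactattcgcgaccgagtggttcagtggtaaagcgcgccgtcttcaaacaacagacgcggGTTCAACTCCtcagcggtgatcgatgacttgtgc
W03C9.9 (chrII:11960788-11960917, plus strand): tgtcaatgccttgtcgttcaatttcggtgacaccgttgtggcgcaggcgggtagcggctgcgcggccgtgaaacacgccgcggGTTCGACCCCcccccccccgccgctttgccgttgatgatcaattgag
In these 3 the element began 11, 14 and 27 bases before the 5′ end, much closer to the gene than the PSE-like element.

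The third set is centred on the summit, with 100 bases on both sides, and shows the strongest region with an E2F core at an snRNA gene and at a snoRNA gene, and 2 of the strongest at miRNA genes. The still stronger region at mir-4932, described below, is not printed. The core was searched on either strand as TTNNCGC in which each N is C or G, and it is in capitals.
sls-2.8 (chrIII:12250274-12250474, plus strand): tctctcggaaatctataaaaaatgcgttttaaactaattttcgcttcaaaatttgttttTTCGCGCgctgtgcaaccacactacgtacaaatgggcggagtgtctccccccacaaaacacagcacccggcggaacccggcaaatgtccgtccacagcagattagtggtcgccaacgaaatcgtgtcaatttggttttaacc
F09G2.14 (chrV:7196534-7196734, minus strand): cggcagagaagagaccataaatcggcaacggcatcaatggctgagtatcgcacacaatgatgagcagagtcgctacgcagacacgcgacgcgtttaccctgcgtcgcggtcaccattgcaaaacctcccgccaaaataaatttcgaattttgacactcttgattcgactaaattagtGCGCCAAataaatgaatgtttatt
mir-229 (chrIII:2172166-2172366, plus strand): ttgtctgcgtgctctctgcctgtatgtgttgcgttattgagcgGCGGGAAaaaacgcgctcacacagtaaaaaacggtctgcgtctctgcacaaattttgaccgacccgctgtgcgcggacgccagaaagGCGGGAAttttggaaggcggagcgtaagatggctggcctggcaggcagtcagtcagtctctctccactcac
mir-4934 (chrIV:9825374-9825574, minus strand): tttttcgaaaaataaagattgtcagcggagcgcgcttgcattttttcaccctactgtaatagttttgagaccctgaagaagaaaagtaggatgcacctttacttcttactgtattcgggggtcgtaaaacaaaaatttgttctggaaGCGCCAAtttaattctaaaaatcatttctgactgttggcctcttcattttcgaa
The region at mir-229 held 2 copies of the core, both as GCGGGAA on the strand of the gene, and the others held 1.

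Regions at small RNA genes were in the optimal list more often than the joint list as a whole, and the 3 classes of gene differed in how often. For snoRNA genes, 78 of 164 regions were in it (47.6%, interval 39.7 to 55.5). For snRNA genes, 23 of 55 were (41.8%, 28.7 to 55.9), and for miRNA genes 11 of 53 (20.8%, 10.8 to 34.1). The intervals of snoRNA and miRNA genes did not overlap, and that of snRNA genes overlapped both. All 3 shares were above 9.35%. The snRNA and miRNA counts varied the most in proportion between the replicates. In the list of replicate 2 alone, 77 snoRNA, 27 snRNA and 7 miRNA regions were among the 2802 strongest nuclear regions. In that of replicate 1 alone, 68, 17 and 11 were, in the same order.

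For comparison, 97 of 345 regions at tRNA gene starts were in the optimal list (28.1%, 23.4 to 33.2). Among the 4898 regions within 200 bp of a protein-coding start, 20 of them also at a small RNA gene, the share was 21.9% (20.8 to 23.1). Most regions at small RNA genes were not close to a coding start, however. Of the 197 that lay more than 500 bp from one, 77 were in the optimal list (39.1%, 32.2 to 46.3). The other 19762 regions at that distance, those near tRNA starts left out, had a share of 4.28% (4.003 to 4.57). The share at small RNA genes was thus almost as high away from coding starts as in all 272 regions.

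**Figure D1:**
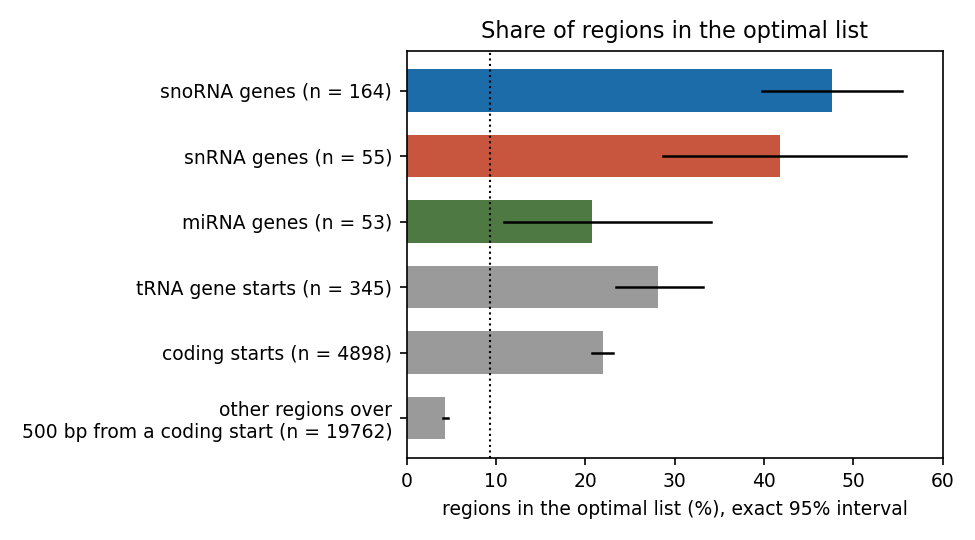
Horizontal bars give the percentage of joint-list regions that are in the optimal list, black lines the exact 95% interval, and the dotted line the 9.35% of all nuclear regions. Regions at snoRNA (47.6%) and snRNA genes (41.8%) lie above those at tRNA gene starts (28.1%), coding starts (21.9%) and miRNA genes (20.8%).

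These regions were of moderate strength. The median signal value in the joint list was 27.0 for all 272, against 12.5 for all nuclear regions. Within the optimal list the median was 75.2 for the 112 small RNA regions and 78.4 for all 2802. None of the 25 strongest nuclear regions of the experiment was among them, 1 of the strongest 100 and 23 of the strongest 1000. With the optimal list ranked by signal and cut into 4 equal parts, 15 of the 112 were in the strongest part, 39 and 36 in the next parts and 22 in the weakest. They were thus fewest at the top of the list.

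**Figure D2:**
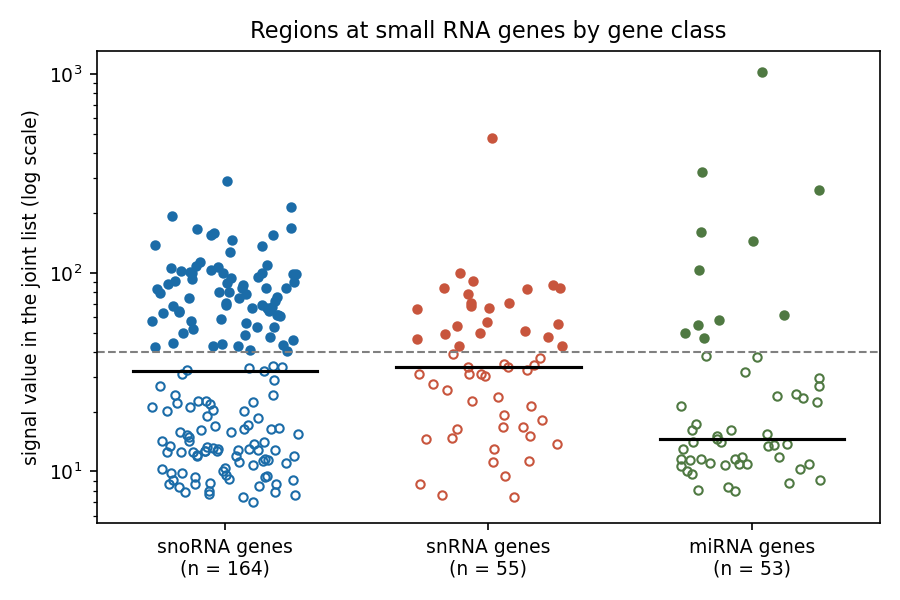
Each point is 1 region, with the authors' signal value in the joint list on a log axis. Filled points are in the optimal list, the dashed line marks its lowest signal (40.1) and black bars are medians. The snoRNA and snRNA medians (32.1 and 33.6) lie just under the dashed line and the miRNA median (14.6) far below it, although the strongest region of all is at a miRNA gene (1024).

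Counted by gene, 79 of the 346 annotated snoRNA genes had an optimal region within 200 bp of the 5′ end (22.8%, 18.5 to 27.6), and 162 had any region of the joint list. Of the 129 snRNA genes, 24 had an optimal region (18.6%, 12.3 to 26.4) and 49 any region. Of the 261 miRNA genes, 11 had an optimal region (4.21%, 2.12 to 7.42) and 57 any region. Most small RNA genes of each class thus had no optimal region.

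Among snoRNA genes, the strongest region was that of F09G2.14 (WBGene00219888, an intergenic gene at V, 7196237 to 7196580, minus strand). Its signal was 289 in the joint list, 145 in replicate 1 and 152 in replicate 2, and its summit lay 54 bp upstream of the gene and 282 bp from the coding start of F09G2.2. It had neither upstream element but did have an E2F core. The region at ZK994.7 (WBGene00044958), inside an intron of a gene on the same strand and 5681 bp from the nearest coding start, that of pxn-1, had a signal of 214, with 104 in replicate 1 and 106 in replicate 2. Its summit was 9 bp upstream of the snoRNA gene, and its PSE-like element is shown above. A single region with a signal of 194 served the neighbouring genes C51F7.4 and C51F7.3, and had 94.6 in replicate 1 and 100.01 in replicate 2. In each of these 3 regions the replicate values were close to each other.

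Y53F4B.47, a PSE-like gene, had a signal of 168 (76.4 in replicate 1, 97.2 in replicate 2). T03F7.8, a B box-like gene annotated antisense to a coding gene, had 167 (86.3 and 79.5 in the same order). Its E2F core overlaps the B box-like element, as the printed sequence shows. The remaining snoRNA genes among the 12 strongest were F39B2.14 (signal 159), Y75B12B.12 (155), W03C9.9 (154), Y37E3.20 (146), M03D4.78 (138), Y23H5B.10 (137) and ZK265.10 (128). In this group, Y37E3.20 had 49.97 in replicate 1 and 98.4 in replicate 2, the least alike pair of the 3 PSE-like genes of the 12. The summits at F39B2.14 (95.6 in replicate 1, 63.1 in replicate 2) and M03D4.78 lie 45 and 257 bp from the coding starts of tmem-107 and zen-4, a kinesin gene of cytokinesis, so by position the snoRNA gene and the coding gene cannot be told apart there. The same holds at Y53F4B.47 and Y75B12B.12, whose summits lie 193 and 222 bp from the coding starts of cmtr-1 and Y75B12B.11. Among the 86 snoRNA regions outside the optimal list the strongest were at ZK546.18 (34.2), C17D12.8 (33.5) and F17C11.15 (33.1), and the median was 12.8.

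Among snRNA genes the spliced leader 2 (SL2) genes were prominent. SL2 RNA donates the leader that is joined to messages of downstream genes in operons. Of its 18 annotated genes, 14 had a region and 8 an optimal region (44.4%, 21.5 to 69.2), against 15 of the 89 snRNA genes that are not named as SL or SmY genes (16.9%, 9.75 to 26.3), and these intervals overlapped. The strongest was sls-2.8 (WBGene00004840, III, 12250465 to 12250575, plus strand), with a signal of 476 and nearly equal replicates at 248 and 242. Its summit was 91 bp upstream of the gene and 210 bp from the coding start of tim-1, a gene of chromosome cohesion and meiosis. It was the only SL2 region above a signal of 100. No SL2 gene has an identical copy, whereas 44 of the 129 snRNA genes have one, and the part of this in the difference from other snRNA genes was not tested.

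The other 7 optimal SL2 regions ranged from 47.5 to 83.7. They were at sls-2.4 (83.7), sls-2.2 (70.6), sls-2.15 (66.5), sls-2.1 (65.9), sls-2.5 (55.6), sls-2.16 (50.9) and sls-2.14 (47.5). The replicate values at sls-2.4, 430 and 290, far exceeded its joint value of 83.7. That region is 855 bp wide, and a replicate's value here is that of its strongest overlapping region, whose summit need not be the same. The region at sls-2.7, with 39.2, was the strongest of all small RNA regions outside the optimal list, and sls-2.18 had 27.5. By contrast, none of the 12 genes of SL1 RNA, which supplies the leader of most trans-spliced messages, had a region of the joint list within 200 bp. The upper interval bound of a share of 0 in 12 is 26.5%, so the contrast with SL2 rests on few genes. All 12 SL1 genes have an identical copy elsewhere in the genome and none of the SL2 genes has one, and the part of this in the contrast was not tested.

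The genes sup-6 and sup-39, which are known from suppressor alleles of U1 snRNA, the RNA that pairs with the 5′ splice site, both had an optimal region. The signal at sup-6 was 100.4 (39.7 in replicate 1, 58.2 in replicate 2), with the summit 51 bp upstream. At sup-39 it was 56.4 (35.1 and 24.1), with the summit 21 bp upstream. Both genes lie in introns on the sense strand and have the PSE-like element. Of the 12 SmY genes, whose RNAs are linked to trans-splicing in nematodes, 3 had a region. Those of smy-3 (93.4) and smy-1 (42.6) were optimal, and that of smy-10 (13.7) was not. The annotation classes smy-3 as a snoRNA gene, and it is counted there.

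The snRNA genes F38E11.10 (signal 91.0), W05B2.8 (86.5), H27M09.6 (83.9), C52E4.8 (82.96), F54D8.7 (78.4), F32B5.9 (70.6) and Y57G11C.35 (68.3) followed. Their RNA class is not named in the annotation used. The summits at H27M09.6 and Y57G11C.35 lie 171 and 217 bp from the coding starts of syp-4 and Y57G11C.5, so by position the snRNA gene and the coding gene cannot be told apart there. F38E11.10, W05B2.8, C52E4.8 and F54D8.7 belong to sets of 2, 14, 2 and 3 genes of identical sequence, so reads inside these genes could come from another copy and their values are uncertain. Identical copies exist for 44 of the 129 snRNA genes, 6 of the 261 miRNA genes and none of the 346 snoRNA genes. They account for 5 of the 112 optimal regions, all at snRNA genes. The strongest snRNA regions outside the optimal list, after sls-2.7, were at ZK897.3 (37.3) and F08G2.9 (34.6).

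Among miRNA genes the strongest regions mostly lay next to coding starts. The strongest of all 272 regions, with a signal of 1024 and rank 45, was at mir-4932 (WBGene00219227, I, 9512307 to 9512416, plus strand), with 583 in replicate 1 and 441 in replicate 2. Its summit was 104 bp downstream of the miRNA 5′ end but 41 bp from the coding start of the kinesin gene klp-16, so the nearer start is that of klp-16. The regions at mir-5549 (321, replicates 182 and 139), mir-4934 (161, replicates 83.3 and 78.0) and mir-61 (144, replicates 66.0 and 69.9) lay 134, 220 and 133 bp from the coding starts of rfc-4, a clamp loader gene, mtr-4, an RNA helicase gene, and F55A11.4. In all, 6 of the 11 optimal miRNA regions were within 500 bp of a coding start, against 29 of the 101 at snoRNA and snRNA genes.

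The region at mir-229 (WBGene00003322, III, 2172452 to 2172566, plus strand) was different in this respect. Its signal was 261, with 106 in replicate 1 and 160 in replicate 2, its summit was 186 bp upstream of the hairpin, and the nearest coding start was 20321 bp away. Its mature RNA, with the seed (bases 2 to 8) in capitals, is given by RefSeq on build ce11 as follows.
mir-229 a (chrIII:2172459-2172484, plus strand): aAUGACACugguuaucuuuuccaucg
The 2 copies of the E2F core in its region are shown in the third set of sequences above.

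Of the miRNA families looked at whatever their values, the mir-51 family, broadly expressed miRNAs with overlapping roles in development, had a region at each of its 6 genes and an optimal one at 2. The region at mir-51 had a signal of 54.4 (29.4 in replicate 1, 19.4 in replicate 2) and that at mir-52 had 49.6 (19.4 and 27.3). In both genes 1 replicate fell below its own 2802 strongest regions. The values were 29.5 at mir-53, 17.4 for a region that mir-54 and mir-55 share, and 14.0 at mir-56. The 3 genes on chromosome IV, mir-51 to mir-53, were thus above the 3 on X, and the seed of all of them, in capitals in these RefSeq records on build ce11, is the same.
mir-51 a (chrIV:11026074-11026096, minus strand): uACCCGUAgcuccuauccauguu
mir-52 a (chrIV:14034024-14034047, plus strand): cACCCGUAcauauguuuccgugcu
mir-53 a (chrIV:11027653-11027676, minus strand): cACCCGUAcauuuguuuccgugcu
mir-54 b (chrX:13145011-13145034, minus strand): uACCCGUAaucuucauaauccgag
mir-55 b (chrX:13144842-13144864, minus strand): uACCCGUAuaaguuucugcugag
mir-56 b (chrX:13144706-13144727, minus strand): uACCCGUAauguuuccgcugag
The shared seed is a property of the mature RNA and was not used in finding the regions.

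The mir-35 family, maternal and embryonic miRNAs, had 1 region among mir-39, mir-40 and mir-41 of the mir-35 to mir-41 cluster, with a signal of 37.8 and rank 3000, just outside the optimal list, and values of 19.6 and 18.3 in replicates 1 and 2. No region was at mir-42. In the let-7 family of developmental timing, mir-48 alone had a region (11.1), and let-7, mir-84 and mir-241 had none. The let-7 gene is annotated as a transcript of 1732 bp, so its 5′ end is not that of the hairpin. No region was found at lin-4 or mir-237, the other timing miRNAs looked at. In the mir-58 family, mir-58.1 (15.4) and mir-80 (11.6) had regions outside the optimal list and mir-81 and mir-82 none. Among mir-1, lsy-6, mir-34 and mir-71, mir-34 alone had one, at 10.7. All of these values are near the median of the whole joint list (12.5), except that of the mir-35 cluster.

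The remaining optimal miRNA regions were at mir-2213 (104), mir-4936 (61.1), mir-5594 (58.2) and mir-4812 (46.9). That at mir-5594 differed between replicates, with 35.8 in replicate 1 and 14.9 in replicate 2. Outside the optimal list the strongest were mir-8196.1 (38.2), the mir-40 region and mir-356.2 (31.7).

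Summits of optimal regions were concentrated just upstream of the small RNA gene. Of the 112, 72 (64.3%) lay 1 to 100 bp upstream of the 5′ end, against 40 of the 160 regions outside the optimal list (25%). The median position was 34 bp upstream in the first group, with quartiles 61 bp upstream and 4.75 bp downstream, and 8 bp upstream in the second, with quartiles at -101.5 and 100.75 bp relative to the 5′ end. In bins of 50 bp the optimal regions numbered 30 from 100 to 51 bp upstream and 42 from 50 to 1 bp upstream, and 2 to 12 in each other bin. The regions outside the optimal list numbered 14 to 26 in every bin, the most also from 50 to 1 bp upstream, and were spread more evenly. Some of them lay beside an optimal region at the same gene, as at F42C5.12 and sls-2.1. Such neighbours were counted as separate regions, and their part in this spread was not tested. The rule for including a region used neither the optimal list nor the side of the gene.

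The concentration differed between the classes. Of the snoRNA regions with the summit 1 to 100 bp upstream, 52 of 71 were optimal (73.2%, 61.4 to 83.1), against 26 of 93 elsewhere in the window (27.96%, 19.1 to 38.2). For snRNA regions the shares were 16 of 26 (61.5%, 40.6 to 79.8) and 7 of 29 (24.1%, 10.3 to 43.5). For miRNA regions they were 4 of 15 (26.7%, 7.79 to 55.1) and 7 of 38 (18.4%, 7.74 to 34.3). The intervals were apart for snoRNA genes, overlapped slightly for snRNA genes and overlapped almost wholly for miRNA genes.

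**Figure D3:**
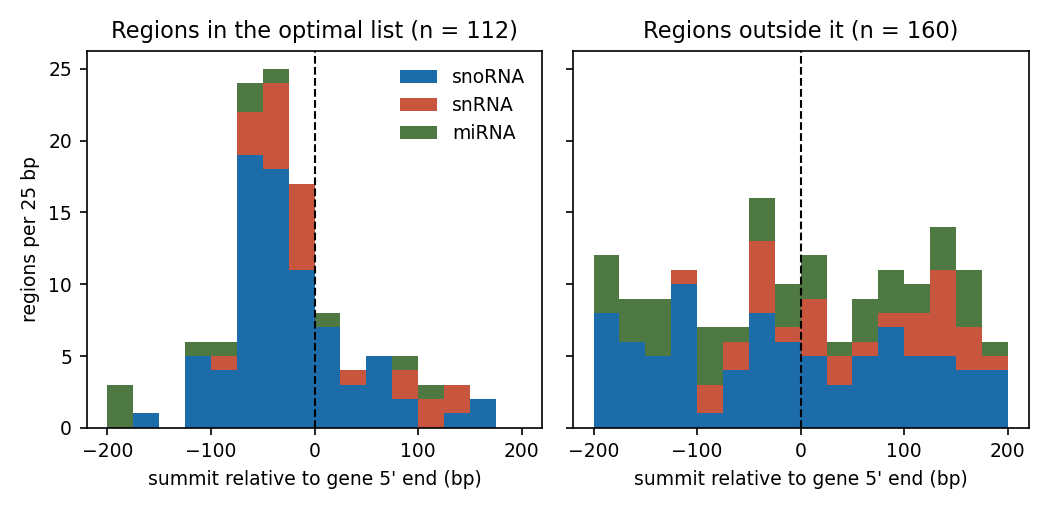
Stacked histograms give the number of regions per 25 bp by the position of the summit relative to the 5′ end of the small RNA gene (dashed line), negative values being upstream. Optimal regions (left) gather in the 100 bp upstream of the gene (72 of 112) and the others (right) are spread over the window (40 of 160 in that stretch).

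The upstream elements were then set against the regions at the level of genes. Both elements were chosen after the sequences of optimal regions had been seen, so their shares among regions describe these data and were not tested. The PSE-like letters occurred upstream of 43 of 129 snRNA genes (33.3%), 38 of 346 snoRNA genes (10.98%) and 4 of 261 miRNA genes (1.53%), and of 0.376% of 19973 protein-coding genes over the same stretch. At snRNA and snoRNA genes the element began at a median of 62 bp before the 5′ end. The B box-like letters occurred at 28 snoRNA genes (8.09%), 1 miRNA gene, mir-51, and no snRNA gene, and at 0.441% of protein-coding genes. At snoRNA genes they began at a median of 13.5 bp before the 5′ end. No small RNA gene had both.

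Of the 38 snoRNA genes with the PSE-like element, 23 had an optimal region (60.5%, 43.4 to 75.96), and of the 28 with the B box-like element, 22 had one (78.6%, 59.0 to 91.7). Among the 280 with neither, 34 had one (12.1%, 8.56 to 16.6). Of the 43 snRNA genes with the PSE-like element, 16 had an optimal region (37.2%, 22.98 to 53.3), against 8 of the 86 without it (9.30%, 4.10 to 17.5). The 86 include the 12 SL1 genes, all of which have an identical copy. The part of identical copies in this contrast was not tested. All 3 shares with an element had intervals above those of genes of their class with neither. The elements were chosen from sequences of optimal regions, so such a gap is partly built in, and it was not tested. None of the 4 miRNA genes with the PSE-like element had an optimal region, and mir-8196.1, 1 of these genes, came close with 38.2. Among the snoRNA genes, 45 of the 79 with an optimal region thus carried 1 of the 2 elements. Genes with neither still accounted for the other 34, so the elements do not mark all of them.

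**Figure D4:**
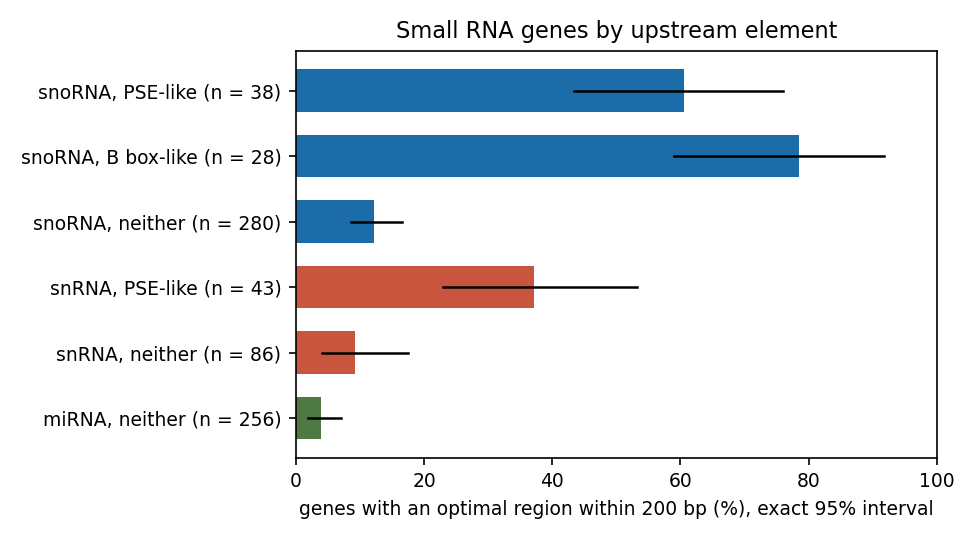
Bars give the percentage of annotated genes that have an optimal region within 200 bp of the 5′ end, black lines the exact 95% interval, split by the element found within 120 bp upstream. snoRNA genes with either element (60.5% and 78.6%) and snRNA genes with the PSE-like element (37.2%) stand above genes of the same class with neither (12.1% and 9.30%). The elements were chosen from sequences of optimal regions, so the gap is partly built in.

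Where an optimal region and an element were both present, the position of the summit was measured from the start of the element. The search rules place the summit and the element near the same 5′ end. Closeness between them is thus largely built in, and it was not tested. The summit was a median of 47 bp downstream of the start of the PSE-like element in 38 optimal regions (quartiles 15 to 83.75 bp), and 36 bp upstream of the start of the B box-like element in 22 (quartiles -48.75 and -4 bp). Over all snoRNA regions of the joint list the median signal was 70.2 with the PSE-like element (31 regions), 67.3 with the B box-like one (25) and 16.7 with neither (108). The elements were chosen from sequences of optimal regions, which are the strongest of the joint list. This gap in signal is thus partly built in, and it was not tested. Within the optimal list, which is itself a choice by signal, the medians were 83.9, 82.96 and 75.3 in the same order. Within 500 bp of a coding start lay 4 of 23, 4 of 21 and 15 of 34 of these optimal regions, again in that order.

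Counted around summits on either strand, within 100 bp, the PSE-like letters were in 32 of the 112 optimal regions (28.6%, 20.4 to 37.9), in 7.50% of the 160 regions outside the optimal list, in 2.19% of the 2690 other optimal regions and in 1.63% of all nuclear regions. The B box-like letters were in 24 (21.4%, 14.2 to 30.2), in 1.25%, in 4.39% and in 2.99% of the same groups, and in 84.5% of the 97 optimal regions at tRNA gene starts, where tRNA genes carry a B box themselves. The PSE-like letters were in 8.25% of those 97. Both elements were chosen from sequences of optimal regions, so their higher shares in the 112 are partly built in and were not tested. In a count of all words of 7 bases within 50 bp of the summit, the word whose share in the 112 exceeded that in the other optimal regions the most was AACCCGC, in 22 regions (19.6%) against 0.706%, followed by CGGGTTC in 20 (17.9%) against 0.855%. Both strands were pooled in this count. Each word, read on one strand or the other, occurs in the PSE-like element of sup-6 and across the start of the B box-like element of Y75B12B.12 as printed above, so neither word belongs to a single element. The words were ranked on these same regions, which fixes that they differ.

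E2F sequences, in contrast, were less frequent at these regions than in the rest of the optimal list. An E2F core lay within 100 bp of the summit in 19 of the 112 (16.96%, 10.5 to 25.2), against 30.2% of the 2690 other optimal regions (28.5 to 32.0), 5.62% of the 160 outside the optimal list and 11.6% of all nuclear regions. The share was higher in the stronger 50% of the optimal list than in the weaker 50% in both groups. In the stronger part a core was in 14 of 54 (25.9%, 14.96 to 39.7) against 39.9% of 1347 others (37.3 to 42.6). In the weaker part it was in 5 of 58 (8.62%, 2.86 to 18.98) against 20.5% of 1343 (18.3 to 22.7). Within each part the intervals of small RNA regions and others overlapped slightly. Those of the 54 and the 58 also overlapped, and a dependence on signal was not tested. By class the core was in 11 of 78 snoRNA regions (14.1%), 3 of 23 snRNA regions (13.0%) and 5 of 11 miRNA regions (45.5%, 16.7 to 76.6). It was in 8 of the 97 optimal regions at tRNA gene starts (8.25%, 3.63 to 15.6). A share below that of the other optimal regions was thus not particular to these small RNA genes. The letters TTTGAA or TTCGAA, the cell cycle homology region bound by DREAM through its LIN-54 subunit, were in 32.1% (23.6 to 41.6) of the 112 and 59.9% (57.97 to 61.7) of the other optimal regions. Among all nuclear regions they were in 50.96%. The share at the 112 was thus below that of the whole joint list as well.

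The share with an E2F core differed with the distance to a coding start within these regions. Of the 35 optimal regions within 500 bp of a coding start, 12 had a core (34.3%, 19.1 to 52.2), close to the 31.4% of the 1772 other optimal regions at that distance. Of the 77 farther away, 7 had one (9.09%, 3.73 to 17.8), against 27.9% (25.006 to 30.9) of 918 other optimal regions. The interval of the 77 lies below that of the 918. Of the strongest regions, those of mir-4932, sls-2.8, F09G2.14, mir-4934 and mir-61 had a core and a coding start within 500 bp. Those of mir-229 and T03F7.8 had a core with no coding start that close. Several other regions stronger than that of mir-61 had no core. Some of them, such as that of mir-5549, lay within 500 bp of a coding start, and some lay farther away. TATAAA did not set the regions apart (18.8%, 11.997 to 27.2, against 16.2% of the other optimal regions).

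Optimal regions at small RNA genes lay at coding starts less often than the rest of the list. Of the 112, 35 (31.2%) were within 500 bp of a coding start and 10 within 200 bp, against 65.9% of the 2690 other optimal regions within 500 bp. The 112 were near the 32.5% of all nuclear regions within 500 bp, and 25% of the 160 regions outside the optimal list were that close. The rule selects by position at small RNA genes, which itself bears on this distance. The median distance to a coding start was 1012 bp, against 276.5 bp. In 107 of the 112 the small RNA 5′ end was nearer to the summit than any coding start. The rule places every summit within 200 bp of a small RNA 5′ end, so most of this count is fixed by the rule.

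Regions were also split by the position of the small RNA gene relative to coding genes. In the optimal list were 50 of 112 regions at intergenic small RNA genes (44.6%, 35.2 to 54.3), 38 of 106 at genes within introns on the same strand (35.8%, 26.8 to 45.7) and 16 of 32 at genes antisense to a coding gene (50%, 31.9 to 68.1). The shares were 4 of 15 at genes that overlap an exon on the same strand (26.7%, 7.79 to 55.1) and 4 of 7 at genes that overlap a coding gene in part (57.1%, 18.4 to 90.1). These 5 intervals overlapped, the last 2 resting on few regions. Chromosomes I to V had shares between 36.4% and 46.8% and overlapping intervals. On X 1 of 13 regions was optimal, that of mir-4812 (7.69%, 0.195 to 36.0), and 5.49% of all 1531 nuclear regions there were. Of 33 snoRNA genes on X, 3 had a region and none an optimal one (upper bound 10.6%), against 79 optimal among the 313 on autosomes.

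The replicates were set side by side through their own lists. Of the 112 optimal regions, 86 (76.8%) overlapped 1 of the 2802 strongest nuclear regions of both replicates by at least 1 bp, 9 of replicate 1 alone, 17 of replicate 2 alone and 0 of neither. The other optimal regions had a share of 71.3% in both. The optimal regions were chosen on both replicates together, so these shares are partly built in. A region was present in replicate 1 for 111 and in replicate 2 for all 112. Over the 111 pairs the median ratio of replicate 1 to replicate 2 was 1.03, the lowest 0.276 and the highest 2.41, and 102 were within a factor of 2. The value was higher in replicate 1 for 59.

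Across those 111 regions Pearson's r of the log2 signal was 0.760 and Spearman's rho 0.591, a description over regions of the same 2 libraries. Within snoRNA genes r was 0.576 over 77 regions. Both lists have unknown depth and scale, so the ratios describe the lists.

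**Figure D5:**
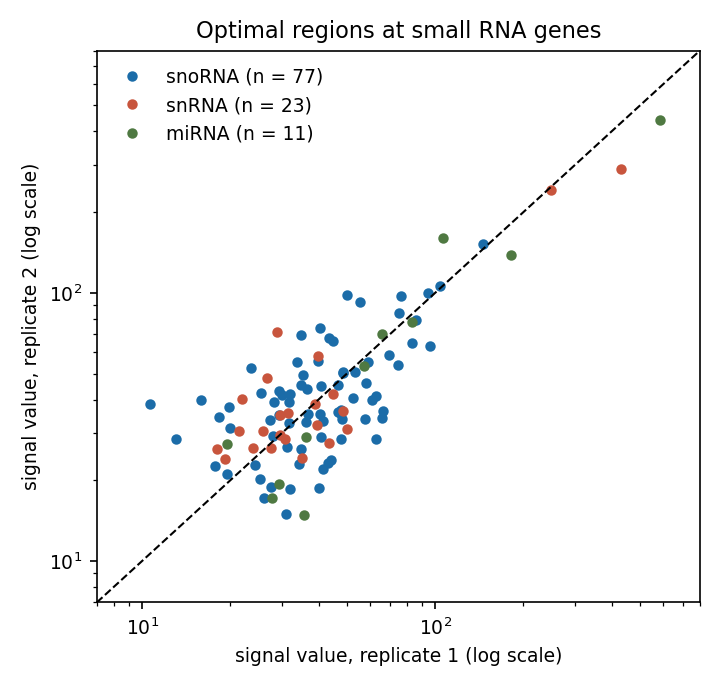
Each point is an optimal region at a small RNA gene with a region in both replicates (111), with its signal in replicate 1 and replicate 2 on log axes. The dashed line marks equal values. Points lie on both sides of the line, most within a factor of 2 (102), and the spread is widest at low signal.

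Regions close to the limits of the rule and of the optimal list were as follows. The summit at the snoRNA gene K09H9.11 lay 200 bp from the 5′ end and was included, with a signal of 31.9, and that at ZK858.10, at 202 bp and with 27.3, was not. Neither was optimal. The weakest optimal regions were at C14C10.8 (42.3), T10B9.11 (40.7, with no region in replicate 1) and F47G4.9 (40.3), and the strongest outside were at sls-2.7 (39.2), mir-8196.1 (38.2) and mir-40 (37.8). The values on either side of the limit were thus nearly equal. Of the 272 regions, 8 were near more than 1 small RNA gene and were given the class of the nearest, and 1 further region was left out for a tRNA gene start.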

How the data were processed

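EFL-1 binding was measured by chromatin immunoprecipitation and sequencing in 2 biological replicates of 1 group. The authors deposited peak lists on build ce11 for each replicate, for both together and as a thresholded optimal list, per the labels and accompanying texts. The signal value of each region is the authors' own, and no source used here gives its scale, the aligner, the caller or the threshold of the optimal list. The deposited ce10 lists were not used. Samples were labelled by replicate number, and no comparison of groups was possible.

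The summit is the deposited start plus the offset plus 1, counted from 1. Genes, biotypes and start sites came from the Ensembl release 115 annotation of WBcel235, the same assembly as ce11, and gene symbols, mature miRNAs and the genome sequence from RefSeq. All 736 small RNA genes had a RefSeq symbol. Optimal regions were matched to the joint list by position, summit and signal, and were its 2802 strongest nuclear regions. A replicate's value is that of its strongest region overlapping by at least 1 bp. Coding starts are the 5′ ends of all protein-coding transcripts. Motifs were searched on both strands within 100 bp of the summit and upstream elements on the strand of the gene within 120 bp. Scripts used Python 3.11.15, pandas 2.3.3 and scipy 1.17.1, and the positional rule was tested on simulated summits.

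Depth is unknown, so precision is that of counts of regions, with exact 95% intervals. The regions, gene families and lists were chosen with earlier results of these data known. Named genes are the 12 strongest optimal regions per class, the 3 strongest outside the optimal list and fixed families, and genes at the limits of the rule; sup-39, the SmY genes and C51F7.3 were added once their values had been seen. The 2 upstream elements were chosen after the sequences were seen. Alternatives were other windows and lists.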

Additional observations from a re-analysis of the deposited data

How the results depend on the processing

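Of 89 values recomputed under other settings, 72 stayed within 1.5 times the reported value and 17 moved by more. With a window of 100 bp there were 173 regions, 6 optimal miRNA regions, a median signal of 44.2 and 12 optimal regions with an E2F core. With 500 bp there were 490 regions, 17 optimal miRNA regions and a median signal of 17.5. In the stronger 50% of the optimal list were 54 of the regions, 40 at snoRNA, 8 at snRNA and 6 at miRNA genes, with 22 within 500 bp of a coding start, 54 strong in both replicates and 25.9% with an E2F core, against 16.96%. Within 200 bp of a coding start lay 10 of the 112. The cause was not tested, beyond what a narrower window or shorter list itself removes.

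With the list of 1 replicate alone, its 2802 strongest nuclear regions stood in for the optimal list. The ranges were 259 to 275 regions at 256 to 280 genes, with a median signal of 15.1 to 17.1, on that list's own scale. Among the strongest were 96 to 111 of these regions, 68 to 77 at snoRNA, 17 to 27 at snRNA and 7 to 11 at miRNA genes. Of those, 34 to 35 were within 500 bp of a coding start and 17 to 18 had an E2F core. The share in the optimal list was 28.2% with the 500 bp window and 54.3% with the 100 bp window. With 1 replicate, the share among the strongest regions of its own list was 37.1% to 40.4%. A summit without the added 1, an alternative chosen after seeing the data, gave 271 regions and the same 112 optimal count. No paired analysis was possible because there is 1 group. Unknown depth and an unanalysed control limit every statement on absence of a region.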
